A study of Mus musculus with 10 samples.

Results

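Chromatin that differs between effector and central regulatory T (Treg) cells was measured here with wild-type and Fntb-deficient cells pooled into a single comparison. All 10 of the series' 10 ATAC-seq libraries entered it, chosen by the genotype and subset in their column names: 5 libraries of effector Treg (eTreg) cells against 5 of central Treg (cTreg) cells, with genotype as a term of the model. Each subset had 3 wild-type (WT) libraries and 2 FntbKO libraries, in which the cells lacked Fntb. The mouse cells were sorted directly from chimeras made with mixed bone marrow, animals that received marrow of more than 1 donor type, and the tissues were the spleen and the lymph nodes. The labels do not give how or when Fntb was deleted, the host and donor strains, the ages or the gates of the sort, or whether libraries came from separate animals. The p-values below therefore measure the spread between these libraries, which may in part be technical. Read counts were tested in 76216 of the 77076 regions of the deposited table. A region was called where the Benjamini-Hochberg adjusted p over all tested regions was under 0.05, and gained where the pooled comparison called it and neither the WT nor the FntbKO comparison of the same libraries did.

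ATAC-seq uses a transposase that cuts and tags DNA where it is not wrapped in tightly packed chromatin, so that more reads from a region mean a more accessible region. Treg cells restrain immune responses and depend on the transcription factor FOXP3. Central Treg cells resemble resting lymphocytes, carry the homing receptor CCR7 and circulate through lymphoid organs, while effector Treg cells have responded to antigen, express inhibitory receptors and cytokines such as IL-10, and enter other tissues. Fntb is the gene of the β chain of farnesyltransferase, an enzyme that attaches a lipid anchor to RAS, to lamins of the nucleus and to other proteins. The factors TCF-1, LEF1, SATB1, FOXP1 and BACH2 are known for the resting state, and BLIMP-1 (Prdm1), MAF, NFIL3 and BATF for the effector state.

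Gene starts with a region that only the pooled comparison called are shown first, since they place the finding at a defined element. The 6 promoter sequences below run 5′ to 3′ on the gene's strand, from 250 bases before the gene start to 30 bases from it, and come from RefSeq (GRCm38.p6). Regions at Tigit, Tnfrsf9, Cxcr3 and Areg were higher in eTreg cells, and those at Il7r and Gpr83 were lower. Capitals mark the motif matches found by a search of both strands, a RUNX motif (TGTGGTT, or AACCACA on the other strand) in Tigit, Cxcr3 and Il7r, an AP-1 motif (TGANTCA) in Tnfrsf9 and a cyclic AMP response element (TGACGTCA) in Areg. Gpr83 held no match to the 7 motifs searched. The 6 were picked from 10 gained starts among the genes of the lists described below. The other gained starts, those of Sox4, S100a4, Nfil3 and Nr4a2, held no match either.
Tigit promoter (chr16:43664155-43664434, minus strand): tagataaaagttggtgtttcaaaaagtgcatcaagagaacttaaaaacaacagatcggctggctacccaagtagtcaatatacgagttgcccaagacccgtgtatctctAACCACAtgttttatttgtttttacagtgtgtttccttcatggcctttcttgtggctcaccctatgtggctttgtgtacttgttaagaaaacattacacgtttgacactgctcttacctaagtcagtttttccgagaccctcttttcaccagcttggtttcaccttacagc
Tnfrsf9 promoter (chr4:150927749-150928028, plus strand): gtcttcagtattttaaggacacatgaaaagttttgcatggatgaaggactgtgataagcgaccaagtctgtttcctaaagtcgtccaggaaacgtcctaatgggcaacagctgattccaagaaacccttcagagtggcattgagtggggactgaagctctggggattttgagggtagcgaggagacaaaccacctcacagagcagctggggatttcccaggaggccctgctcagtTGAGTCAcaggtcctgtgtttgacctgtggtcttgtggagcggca
Cxcr3 promoter (chrX:101734118-101734397, minus strand): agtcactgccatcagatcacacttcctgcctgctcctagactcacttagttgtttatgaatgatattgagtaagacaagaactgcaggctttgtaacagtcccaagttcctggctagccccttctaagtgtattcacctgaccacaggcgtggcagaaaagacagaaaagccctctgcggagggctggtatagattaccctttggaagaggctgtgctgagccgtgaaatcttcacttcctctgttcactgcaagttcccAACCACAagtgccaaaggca
Areg promoter (chr5:91139349-91139628, plus strand): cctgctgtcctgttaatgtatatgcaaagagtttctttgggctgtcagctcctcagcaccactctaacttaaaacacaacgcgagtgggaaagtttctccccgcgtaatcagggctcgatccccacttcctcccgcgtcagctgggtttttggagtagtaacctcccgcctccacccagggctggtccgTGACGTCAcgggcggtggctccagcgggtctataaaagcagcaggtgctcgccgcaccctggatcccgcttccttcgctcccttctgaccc
Il7r promoter (chr15:9529847-9530126, minus strand): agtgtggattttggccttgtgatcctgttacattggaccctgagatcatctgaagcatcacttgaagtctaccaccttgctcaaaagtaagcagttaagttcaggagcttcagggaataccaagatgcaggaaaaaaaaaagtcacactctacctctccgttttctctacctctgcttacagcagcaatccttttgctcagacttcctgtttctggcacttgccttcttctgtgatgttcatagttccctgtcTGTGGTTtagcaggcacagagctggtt
Gpr83 promoter (chr9:14859960-14860239, plus strand): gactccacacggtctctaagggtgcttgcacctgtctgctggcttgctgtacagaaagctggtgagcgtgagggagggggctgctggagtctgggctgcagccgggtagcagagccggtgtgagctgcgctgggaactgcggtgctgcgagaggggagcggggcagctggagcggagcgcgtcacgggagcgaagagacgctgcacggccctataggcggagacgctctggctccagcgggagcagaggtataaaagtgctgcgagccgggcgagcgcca

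Over windows of 250 bases before to 50 after the start, the RUNX motif was in 5.27% of 32815 RefSeq promoters and in 4.19% of the promoter windows at the 10125 tested regions that touch one. It was in 5.85% of the windows at 427 regions called higher in eTreg and in 8.38% of those at 167 called lower. The AP-1 motif was in 7.81% of all windows, 5.2% of tested, 7.49% of higher and 5.39% of lower ones. The cyclic AMP response element was in 1.79%, 3.24%, 1.87% and 1.8% in the same order. The TCF/LEF motif CTTTGAA was in 5.14%, 3.57%, 2.58% and 8.38%, and the ETS motif CCGGAAG in 8.86%, 17.3%, 12.2% and 8.38%. The IRF motif was in 3.43%, 3.09%, 2.34% and 2.99%, and the NF-kB motif in 0.411%, 0.435%, 0.937% and 0%. The counts behind the last shares are small, 4 of 427 and 0 of 167, and none of these shares was tested. A match is a run of letters in these windows and not a shown binding site.

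Among 175 miRNA hairpins with a tested region within 1000 bases, 3 regions beside miRNAs known from lymphocytes were picked after their values were seen: miR-155, which Treg cells are known to need for competitive fitness, miR-148a and the pair of miR-29b-2 and miR-29c. Their mature RNAs (RefSeq, GRCm38.p6) are shown with the seed, bases 2 to 8, in capitals. The miR-29 members share the seed AGCACCA.
miR-155-5p: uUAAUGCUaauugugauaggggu
miR-148a-3p: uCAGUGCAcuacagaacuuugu
miR-29b-3p: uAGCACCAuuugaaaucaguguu
miR-29c-3p: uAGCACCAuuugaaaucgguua

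Total counts per library ranged from 5058328 to 15328775. Levels below are TMM-scaled CPM, counts relative to the library's total, listed for replicates 1 to 3 or 1 to 2. The region at the start of Fntb held 36.9, 29.2 and 33.1 CPM in WT cTreg, 13.1 and 11.2 in FntbKO cTreg, 29.4, 30.3 and 30.2 in WT eTreg and 11.6 and 7.48 in FntbKO eTreg, so the FntbKO libraries were below the WT libraries in both subsets. Between subsets the log2 fold at Fntb was -0.22 (SE 0.12, adjusted p = 0.24) by edgeR. The 3 tested regions of Foxp3 had log2 folds of 0.03, -0.06 and -0.62, and none was called. Of the variance, 32.6% lay on the first principal component, on which the subsets overlapped. WT cTreg 2, at 9.02, lay beyond FntbKO eTreg 1, at 0.691, among the eTreg libraries, and FntbKO cTreg 1 was the most distant from them. The measures of each library (its total and the shares of reads in classes of regions) had adjusted p values of 0.833 or more between subsets (two-sided exact permutation tests within genotype, 120 arrangements, smallest possible p 0.0167).

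With both genotypes pooled, 8846 of 76216 regions were called (11.6%), 4875 higher (6.4%) and 3971 lower (5.21%) in eTreg cells. From the same libraries, the comparison within WT called 2619 regions (3.44%), 1393 higher (1.83%) and 1226 lower (1.61%). That within FntbKO called 1033 (1.36%), 736 higher (0.966%) and 297 lower (0.39%). The pooled count was 3.38 times the WT count and 8.56 times the FntbKO count. Of the pooled calls, 5854 (66.2%) were gained, which is 7.68% of tested regions, 3169 of them higher (4.16%) and 2685 lower (3.52%). The remaining 2992 had been called in WT or FntbKO, and 401 regions were called in both genotypes. Of the WT calls 93.5% and of the FntbKO calls 91.5% were also called in the pooled comparison, which shares its libraries with both, so these shares are no independent support. In bulk samples, fewer cells of a kind and less accessibility per cell cannot be told apart.

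The count moved with the genotype term and with single libraries. Without the genotype term 2798 regions were higher and 2184 lower, and 2530 were gained. With the term the counts were 2850 higher and 2320 lower without FntbKO eTreg 2, 3172 and 2455 without FntbKO cTreg 1, 3192 and 2315 without WT cTreg 3, and 3193 and 2375 without WT eTreg 3. Gained regions numbered 3101 without FntbKO eTreg 2 and 3002 without FntbKO cTreg 1. Over the 10 fits that each left out 1 library, 3665 pooled calls (41.4%) were kept in every fit, namely 1369 of the gained regions (23.4%) and 2296 of the others (76.7%). No main call had the opposite direction among the calls of any of these fits. The plot of calls shows both sets of counts.

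**Figure D1:**
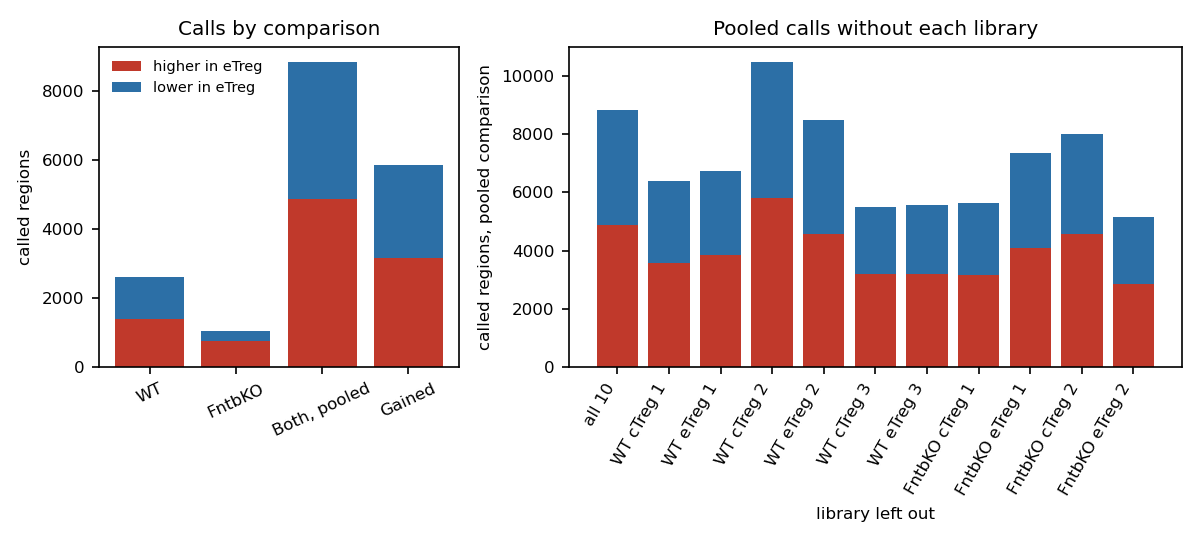
Left: regions called higher (red) or lower (blue) in eTreg than in cTreg cells, for WT, FntbKO, both genotypes pooled, and the regions gained by pooling. Right: pooled calls with all 10 libraries and without each library in turn. The pooled bar reaches 8846 regions against 2619 and 1033, and it is lowest without FntbKO eTreg 2, with 2850 higher and 2320 lower.

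Gained regions changed by less than those already called, and their folds were alike in both genotypes by the way they were chosen. The median log2 fold of the gained regions was 0.85 in those higher in eTreg (0.77 in WT, 0.93 in FntbKO) and -0.72 in those lower (-0.68 and -0.73). Regions that WT or FntbKO had already called had medians of 1.08 and -0.80. The smallest gained change was 0.18, and 1285 gained regions were under 0.5, 2662 between 0.5 and 1, and 1907 at 1 or more. The median SE over all tested regions was 0.24 in the pooled comparison, 0.31 in WT and 0.37 in FntbKO. Of the gained regions, 3005 (51.3%) had an unadjusted p under 0.05 in each genotype, and 1 had it in neither. The 5 eTreg values lay entirely above or below the 5 cTreg values in 1967 gained regions (33.6%), against 6.13% of all tested regions (3.1% all above, 3.02% all below). Regions called on these same values overlap less by their choice. Among regions called before, the shares were larger, 52.5% of those higher and 51.6% of those lower. A gained region held a median of 561 counts over the 10 libraries, against 433 for all.

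**Figure D2:**
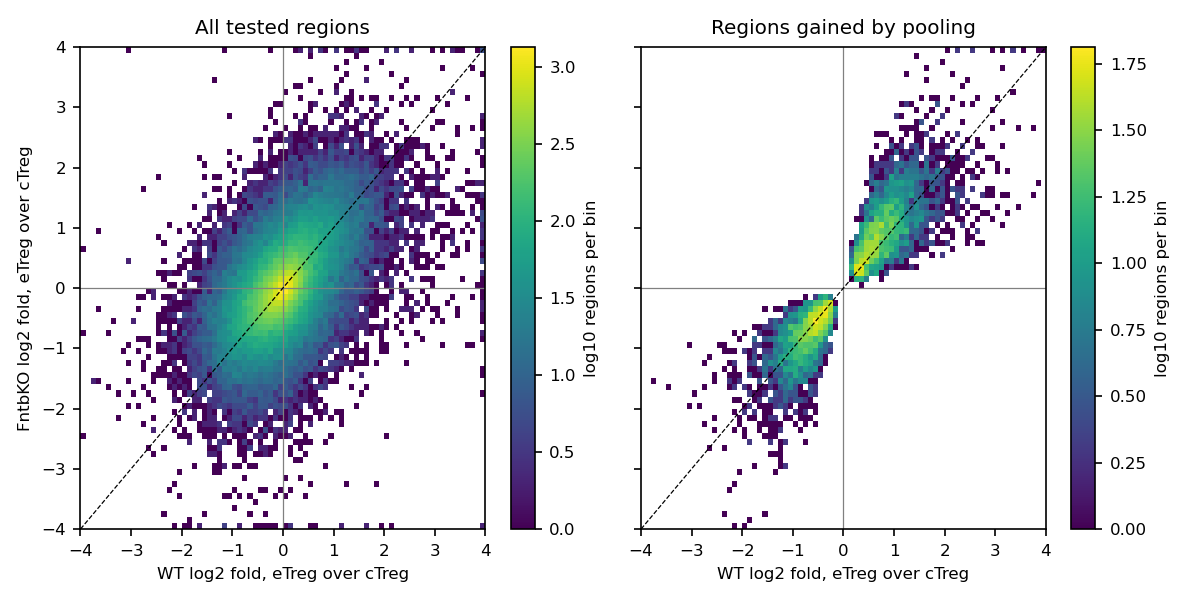
Log2 fold of eTreg over cTreg in WT (x) against FntbKO (y), as the number of regions per bin on a log10 colour scale, for all 76216 tested regions (left) and the 5854 gained regions (right). The dashed line marks equal folds, values past 4 are drawn at the edge, and the gap around 0 at the right comes from the choice of called regions.

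By position, the calls were least frequent at gene starts. Of 10125 tested regions that touch a promoter window, 427 rose and 167 fell (5.87% called), 325 and 122 of them gained. Inside protein-coding gene spans 2540 rose and 2246 fell (12.4%), within 100 kb of a span 1539 and 1211 (11.8%), and farther out 369 and 347 (16.9%). Changes at gene starts were also smaller, with medians of 0.42 and -0.49 against 0.95 and -0.76 inside spans. Regions at gene starts held a median of 2278 counts with an SE of 0.11, against 385 counts and 0.25 inside spans. The gene table holds spans and not exons, so exons, introns and UTRs were not told apart, and an assigned gene is a position and not a shown target.

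At the level of genes, 4318 of 15413 genes with a tested region had a region called in the pooled comparison (28%), and 2094 (13.6%) had one called in WT or FntbKO (11.6% in WT, 5.11% in FntbKO). Pooling gained 2315 genes (15%): 1307 with higher regions only, 835 with lower regions only and 173 with both. Most of them rested on 1 called region (1811 genes), while 352 had 2 and 152 had 3 or more. The gained regions were divided between gained genes (3065 regions), genes already called (2336 regions in 1096 genes) and no gene (453). Gained genes had a median of 6 tested regions against 3 for all genes, so a gene with more regions had more chances to be counted. In 610 gained genes (26.3%) at least 1 region kept its call without each library in turn. The gained genes numbered 1305 when FntbKO cTreg 1 was left out and 1469 when FntbKO eTreg 2 was, and 1088 without the genotype term. Conversely, 91 genes had a region called in WT or FntbKO and none in the pooled comparison.

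Each gained gene was taken at its region of largest fold, among well-covered gained regions whose subsets do not overlap, and these regions were ranked by p. Those with the smallest p-values included a cell cycle gene, an ETS family factor and several enzymes. Among falls the first was Ccnd2, which encodes cyclin D2, a driver of the G1 phase. The Ccnd2 region (chr6:127177982-127178355, 25.8 kb from the gene) held 7.82, 6.19 and 6.55 CPM in WT cTreg, 10.7 and 6.16 in FntbKO cTreg, 3.61, 3.98 and 1.53 in WT eTreg and 2.4 and 3.35 in FntbKO eTreg. Every eTreg library lay below every cTreg library, and FntbKO cTreg 1 was the highest. The log2 fold was -1.26 (SE 0.25, adjusted p = 0.00133) by edgeR, which gave adjusted p = 0.0506 in WT and 0.0539 in FntbKO. Erg, an ETS family transcription factor, had a region (chr16:95441155-95441594, inside the gene) with 12.1, 13.8 and 15.2 CPM in WT cTreg, 21.1 and 16.8 in FntbKO cTreg, 6.99, 11 and 7.47 in WT eTreg and 10.4 and 9.64 in FntbKO eTreg. It fell by 0.78 (SE 0.16, adjusted p = 0.00169) on the log2 scale. The other falls were beside Snrpe, a core protein of the spliceosome (fold -1.07, SE 0.21, adjusted p = 0.00152), Gpr180 (-0.51, SE 0.10, adjusted p = 0.0017), the ciliary gene Ahi1 (-0.62, SE 0.13, adjusted p = 0.00188) and Tnni1, a troponin of slow muscle (-0.89, SE 0.19, adjusted p = 0.00268). They were also beside the flippase family gene Atp9b (-0.69, SE 0.14, adjusted p = 0.00279), Rassf2, a RAS-association domain gene (-0.71, SE 0.15, adjusted p = 0.00298), Nme7 (-0.57, SE 0.12, adjusted p = 0.00298) and Pemt, a phosphatidylcholine-synthesizing methyltransferase (-1.02, SE 0.22, adjusted p = 0.00301).

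Among rises the smallest p belonged to a region beside Plscr5, of the phospholipid scramblase family (chr9:92228964-92229694, 16.4 kb from the gene). The Plscr5 region held 34.9, 39.9 and 37.6 CPM in WT cTreg, 34.5 and 38 in FntbKO cTreg, 50.8, 43.4 and 50.6 in WT eTreg and 48.1 and 52 in FntbKO eTreg. The lowest eTreg value was above the highest cTreg value, though the change was small, at 0.40 (SE 0.08, adjusted p = 0.00186) on the log2 scale. Gbp3 encodes an interferon-inducible guanylate-binding protein of a family with near-identical copies, so its reads are uncertain. The Gbp3 region (chr3:142562399-142562921) held 6.7, 5.16 and 8.13 CPM in WT cTreg, 6.02 and 6.09 in FntbKO cTreg, 9.64, 10.9 and 13.1 in WT eTreg and 14 and 11 in FntbKO eTreg, and it rose by 0.84 (SE 0.18, adjusted p = 0.00224). A region beside Pfkp, the platelet-type phosphofructokinase of glycolysis (chr13:6652566-6652874, 3.51 kb from the gene), held 5.72, 5.33 and 5.28 CPM in WT cTreg, 4.1 and 3.95 in FntbKO cTreg, 9.52, 6.77 and 12.7 in WT eTreg and 9.82 and 8.27 in FntbKO eTreg. It rose by 0.94 (SE 0.20, adjusted p = 0.00247), with FntbKO eTreg and WT eTreg libraries both above all cTreg libraries. The largest fold in this group belonged to Fxyd3, a regulator of the sodium pump, at 1.34 (SE 0.28, adjusted p = 0.0023). WT eTreg 2 was highest there with 10.6 CPM, and the other eTreg libraries held 6.45 to 6.87.

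The other rises were beside Arhgap24, an inactivator of RAC (0.65, SE 0.13, adjusted p = 0.00206), Spink2, a protease inhibitor (0.72, SE 0.15, adjusted p = 0.00227), Rflna (1.09, SE 0.23, adjusted p = 0.00247) and Acot7, an acyl-CoA thioesterase whose region lies at the gene start (0.45, SE 0.09, adjusted p = 0.00259). They were also beside Dcun1d4, a neddylation cofactor (0.60, SE 0.13, adjusted p = 0.00315), and Kcnmb4, a subunit of a potassium channel (0.65, SE 0.14, adjusted p = 0.00341). All 20 regions of these genes kept their call when each library was left out, which their choice by small p without overlap favoured. Of all gained regions, 23.4% did. The adjusted p of the 20 ran from 0.0506 to 0.0974 in WT and from 0.0508 to 0.105 in FntbKO, outside the threshold in each. The same adjusted threshold allowed a larger unadjusted p in the pooled comparison, so being gained rests in part on that cutoff. By edgeR, an unadjusted p of 0.00561 at Sos1 gave 0.0489 pooled. In WT 0.00177 at Ccnd2 gave 0.0506, and in FntbKO 0.000717 at Fxyd3 gave 0.0508. At the threshold of the pooled comparison, the last calls inside were regions of Med13l (log2 fold -0.98), Cmas (-0.38) and Il7r (-0.41), each at adjusted p = 0.04999, and the first outside were beside Col9a1 (2.20) and Arhgef5 (-0.85), at 0.05.

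**Figure D3:**
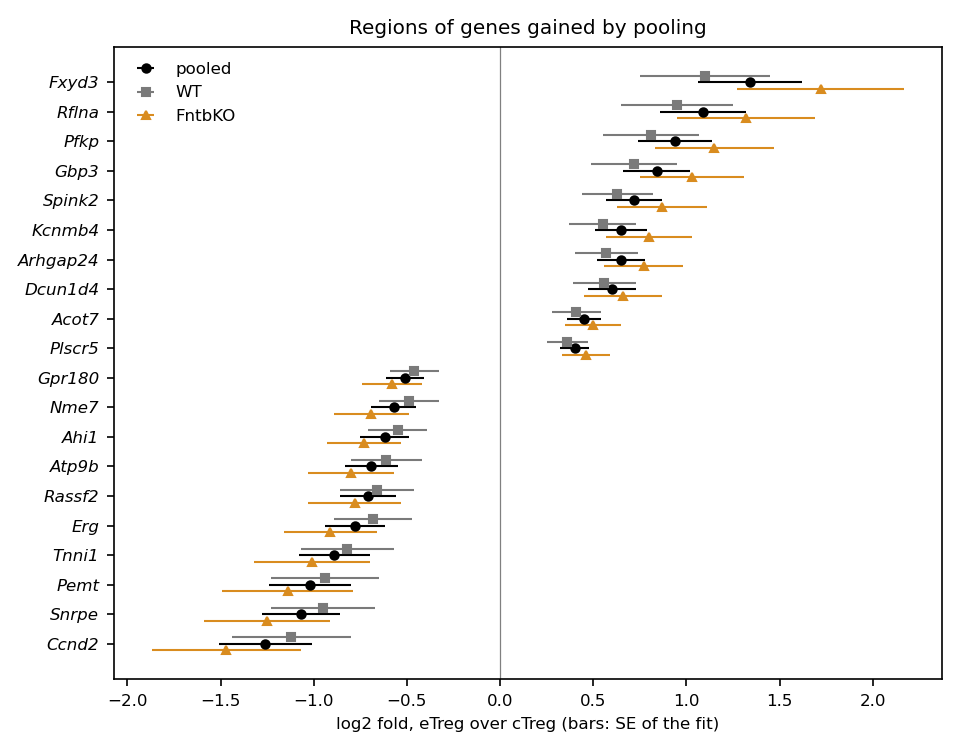
Log2 fold of eTreg over cTreg (x, with SE of the fit) in the 20 regions of gained genes named by smallest p, with each gene taken at its region of largest fold. Circles are the pooled comparison, squares WT and triangles FntbKO. The pooled bars are the shortest; Fxyd3 has the largest rise at 1.34 and Ccnd2 the largest fall at -1.26.

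The largest changes among well-covered regions without overlap between subsets were mostly at regions called before. Of the 20 named by size, 18 were also called in WT or FntbKO alone, and 2, beside Nhlrc2 and in Scfd2, were gained. Il17a encodes a cytokine of inflammatory helper T cells, and its region lies 9.29 kb from the gene (chr1:20743785-20744360). The Il17a region held 8.66, 9.98 and 4.44 CPM in WT cTreg, 3.01 and 4.02 in FntbKO cTreg, 28.8, 26.2 and 19.7 in WT eTreg and 18 and 11.8 in FntbKO eTreg. Every eTreg library exceeded every cTreg library, and the log2 fold was 1.84 (SE 0.19, adjusted p = 2.25e-06). A region beside Serpina3f, a serine protease inhibitor of a multi-copy cluster whose reads are therefore uncertain, had the smallest p of these, with 6.7, 9.64 and 10.1 CPM in WT cTreg, 5.47 and 11.5 in FntbKO cTreg, 30.4, 29.3 and 35.8 in WT eTreg and 28 and 25.8 in FntbKO eTreg. The fold of the Serpina3f region was 1.73 (SE 0.15, adjusted p = 5.72e-07). Camk2a encodes a calcium-dependent kinase, and its region (chr18:60952253-60952935) held 22.2, 14.1 and 25.4 CPM in WT cTreg, 29.8 and 23.8 in FntbKO cTreg, 7.95, 7.97 and 6.45 in WT eTreg and 6.01 and 7.58 in FntbKO eTreg. It fell by 1.65 (SE 0.16, adjusted p = 8.99e-07), and the eTreg libraries lay within a narrow span.

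Of the gained ones the larger change was in Scfd2 (chr5:74476451-74476987, inside the gene), with 4.05, 1.03 and 3.8 CPM in WT cTreg, 2.46 and 3.76 in FntbKO cTreg, 16.5, 4.78 and 14.8 in WT eTreg and 14.4 and 9.55 in FntbKO eTreg. WT cTreg 2 and WT eTreg 2 were the lowest of their subsets there, and the log2 fold was 1.91 (SE 0.35, adjusted p = 0.0035). Other rises were in Bcar1, an adaptor of integrin signalling (1.94, SE 0.28, adjusted p = 7.09e-05), Gxylt1, a glycosyltransferase acting on Notch (1.80, SE 0.25, adjusted p = 4.69e-05), and Gins1, part of the DNA replication machinery (1.79, SE 0.19, adjusted p = 6.73e-06). Further rises were in Vcpkmt (1.79, SE 0.22, adjusted p = 1.55e-05), beside the gained gene Nhlrc2 (1.75, SE 0.37, adjusted p = 0.0054), beside Tm2d3 (1.74, SE 0.28, adjusted p = 0.00207) and beside E230025N22Rik (1.72, SE 0.23, adjusted p = 3.34e-05). Falls were in Cyria, a RAC1 interactor (-1.80, SE 0.23, adjusted p = 3.91e-05), Baz2b (-1.59, SE 0.22, adjusted p = 5.15e-05), Ntn4, a netrin (-1.56, SE 0.23, adjusted p = 7.63e-05), Dusp10, a MAP kinase phosphatase (-1.48, SE 0.22, adjusted p = 7.33e-05), Them7 (-1.40, SE 0.22, adjusted p = 0.000164) and Rreb1, a RAS-responsive factor (-1.38, SE 0.20, adjusted p = 6.84e-05). Regions beside Spsb1 (-1.59, SE 0.20, adjusted p = 1.69e-05), the TGF-β co-receptor Tgfbr3 (-1.42, SE 0.24, adjusted p = 0.00034) and the kinase Abl2 (-1.39, SE 0.20, adjusted p = 7.33e-05) also fell. All 20 calls were kept without each library, which their choice by size without overlap favoured, against 41.4% of all pooled calls.

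Factors of the resting state had more falls than rises in eTreg cells. Of 394 tested regions of 12 such factors, 65 fell and 10 rose (19% called, against 11.6% of all regions), with a median log2 fold of -0.25 against -0.01 over all tested regions. Bach2, a repressor of effector programmes, had 18 falls and 2 rises among 85 regions, Foxp1 21 and 2 among 86, Satb1, a chromatin organizer, 11 and 1 among 30, Lef1 5 and 1 among 39, and Sox4 4 falls among 11. Most of the 65 falls were thus in Foxp1, Bach2 and Satb1. Ets1 had 3 rises and 2 falls among 45 regions, and none of the regions of Tcf7, Id3 and Klf3 was called. The leading Bach2 region (chr4:32291345-32291974, inside the gene) held 33.2, 24.1 and 28.7 CPM in WT cTreg, 39.9 and 29.8 in FntbKO cTreg, 14.5, 19.5 and 12.6 in WT eTreg and 18.8 and 18.5 in FntbKO eTreg. The subsets did not overlap, and the log2 fold was -0.88 (SE 0.12, adjusted p = 5.54e-05). The leading Satb1 region (chr17:51903858-51904322, 70.6 kb from the gene) held 26.3, 21.7 and 26.8 CPM in WT cTreg, 32 and 27.3 in FntbKO cTreg, 14, 14.6 and 12.2 in WT eTreg and 17.6 and 17.2 in FntbKO eTreg, a fold of -0.82 (SE 0.12, adjusted p = 4.83e-05). A Foxp1 region fell by 1.21 (SE 0.21, adjusted p = 0.000396). Pooling added 42 of the 75 calls and 1 gene, Zeb1, a zinc finger repressor with a fold of -0.81 (SE 0.20, adjusted p = 0.00998), not called without FntbKO eTreg 2, at adjusted p up to 0.05. Of the 75 calls, 39 were kept without each library, 12 of the gained ones among them.

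Receptors for circulation through lymphoid organs also had more falls than rises, with 19 falls and 5 rises among 105 regions of 9 genes (22.9% called, median -0.15). S1pr1, which guides lymphocytes out of lymph nodes, had 6 falls and 2 rises among 41 regions. The leading S1pr1 region (chr3:115682417-115683211, 27.2 kb from the gene) held 73.9, 76.2 and 75.5 CPM in WT cTreg, 81.4 and 68.8 in FntbKO cTreg, 54.7, 60.5 and 48.5 in WT eTreg and 59.5 and 45.2 in FntbKO eTreg. The subsets did not overlap, and the log2 fold was -0.49 (SE 0.08, adjusted p = 0.000354). Il7r, the receptor of the survival cytokine IL-7, had 3 falls among 6 regions, with -0.55 (SE 0.11, adjusted p = 0.00112) for the leading one, and Ccr7 had 2 falls among 18. Cxcr5, which guides cells to B cell follicles, was the 1 gained gene, with 2 rises, the leading one at 0.97 (SE 0.27, adjusted p = 0.0176), not called without WT eTreg 3, WT cTreg 3 or FntbKO eTreg 2, at adjusted p up to 0.0927. Itgb7, Cd55 and Gpr18 had no call. Of the 24 calls, 17 were kept without each library, 5 of the 10 gained ones among them.

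Factors of the effector state had more rises than falls. Of 269 regions of 17 factors, 41 rose and 13 fell (20.1% called), with a median of 0.11. Maf, which drives IL-10, had 4 rises, Bhlhe40 had 4, Zeb2 had 6 rises and 3 falls, and Rora had 5 rises and 1 fall. Batf and Gata3 had no call. The leading Maf region (chr8:115742593-115743118, 35.7 kb from the gene) held 8.66, 11.4 and 10.1 CPM in WT cTreg, 3.83 and 7.52 in FntbKO cTreg, 22.9, 23.4 and 31.7 in WT eTreg and 15.6 and 16.9 in FntbKO eTreg. Its fold was 1.40 (SE 0.16, adjusted p = 4.29e-06), with the FntbKO libraries lower than the WT libraries in both subsets. The gained genes were Nfil3, Prdm1 and Myb. Nfil3, a factor known from effector lymphocytes, had 4 rises among 11 regions, all gained, and its leading region (chr13:52985483-52985690, 2.6 kb from the gene) held 2.23, 2.41 and 2.43 CPM in WT cTreg, 0.821 and 2.33 in FntbKO cTreg, 4.1, 5.38 and 6.45 in WT eTreg and 6.01 and 4.62 in FntbKO eTreg. All eTreg values were above all cTreg values, with a fold of 1.34 (SE 0.28, adjusted p = 0.00216). Myb had 1 rise and 1 fall among 17 regions, and the rise was 0.62 (SE 0.20, adjusted p = 0.0401), called in the single fits that left out WT eTreg 1 or WT cTreg 2 but in no other, with adjusted p up to 0.114. Of the 54 calls in this group, 28 were kept without each library, 9 of the 32 gained ones among them.

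Prdm1, which encodes BLIMP-1, moved in both directions: 3 of its 19 regions rose and 4 fell, and all 7 calls were gained. The leading Prdm1 region (chr10:44443669-44444264, inside the gene) held 14.8, 13.1 and 18.7 CPM in WT cTreg, 16.7 and 14.8 in FntbKO cTreg, 10.1, 11.5 and 9.16 in WT eTreg and 11 and 10.4 in FntbKO eTreg. The subsets did not overlap there, and the region fell by 0.58 (SE 0.14, adjusted p = 0.00857), not called without WT cTreg 3, at adjusted p up to 0.0508. The fall at chr10:44483005-44483508 was -0.51 (SE 0.13, adjusted p = 0.0118). A smaller fall lay inside the gene, at -0.32 (SE 0.11, adjusted p = 0.0472), called in the single fits that left out WT cTreg 2, FntbKO eTreg 1 or FntbKO cTreg 2 but in no other, with adjusted p up to 0.175. Another lay 0.739 kb from the gene, at -0.27 (SE 0.08, adjusted p = 0.0369), called in the single fits that left out WT eTreg 1, WT cTreg 2, FntbKO eTreg 1 or FntbKO cTreg 2 but in no other, with adjusted p up to 0.116. Each of the 3 rises lay outside Prdm1. The nearest, 16.7 kb from the gene, had a fold of 1.04 (SE 0.33, adjusted p = 0.0408), called in the single fits that left out WT eTreg 1, WT cTreg 2, FntbKO eTreg 1 or FntbKO cTreg 2 but in no other, with adjusted p up to 0.241. The next, 26.7 kb from the gene, had 1.01 (SE 0.27, adjusted p = 0.0157), not called without WT cTreg 1 or FntbKO eTreg 2, at adjusted p up to 0.0611. The farthest, 73.1 kb from the gene, had 1.95 (SE 0.62, adjusted p = 0.0366), called in the single fits that left out WT eTreg 2, FntbKO eTreg 1 or FntbKO cTreg 2 but in no other, with adjusted p up to 0.137. Of the 7 calls, that at chr10:44483005-44483508 was kept without each library.

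Some loci gained several calls in the same direction and were picked after their values were seen. Runx2, a RUNX family factor, had 7 rises among 49 regions with folds from 0.53 to 1.17, all gained. Of these, the region at chr17:44766256-44766890 held 12.8, 17.9 and 18.5 CPM in WT cTreg, 9.3 and 18.1 in FntbKO cTreg, 23.1, 19.8 and 24.4 in WT eTreg and 22.4 and 30.3 in FntbKO eTreg, a fold of 0.64 (SE 0.16, adjusted p = 0.0105), not called without FntbKO eTreg 2, at adjusted p up to 0.058. None of the 7 Runx2 regions was called without FntbKO eTreg 2. Spef2, a sperm flagellar gene that neighbours Il7r on chromosome 15, had 8 falls among 26 regions, all gained. The Spef2 region at chr15:9600119-9600418 held 4.05, 3.96 and 5.7 CPM in WT cTreg, 5.2 and 2.79 in FntbKO cTreg, 1.45, 1.79 and 2.38 in WT eTreg and 2 and 1.18 in FntbKO eTreg, with every eTreg library below every cTreg library and a fold of -1.33 (SE 0.30, adjusted p = 0.00406). Of the 8, 3 Spef2 calls were kept without each library. Farp1 had 6 gained rises among 18 regions and Xylt1 5 among 26, while St6galnac3 (3 rises and 6 falls among 40) and Sh3rf1 (3 and 5 among 33) were mixed.

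The most gained regions per gene were found where calls had been made before: 13 in Wwox, 12 each in Foxp1 and Nrip1, and 10 in Bach2, Atxn1, Nfia and St8sia1. Nrip1, a nuclear receptor corepressor, had 15 falls and no rise among 52 regions, and Atxn1, a transcriptional corepressor, had 14 rises and no fall among 47. Gas7, a growth arrest gene, had 13 rises among 17 regions, of which 7 were gained. The Gas7 region with the smallest p held 0, 0.688 and 0.211 CPM in WT cTreg, 0.274 and 0.13 in FntbKO cTreg, 2.41, 3.39 and 3.05 in WT eTreg and 1.6 and 1.97 in FntbKO eTreg, a fold of 3.31 (SE 0.54, adjusted p = 0.000233). Its cTreg values are at or near no counts, so the size of that fold is not exact.

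Inhibitory and costimulatory receptors had 28 rises and 15 falls among 170 regions of 14 genes (25.3% called, median 0.02). Tigit, an inhibitory receptor, had 6 rises among 16 regions, 3 of them gained, and Klrg1 had 4 rises, 3 of them gained. The Tigit region at chr16:43661552-43661888 held 7.68, 8.26 and 8.45 CPM in WT cTreg, 1.64 and 5.19 in FntbKO cTreg, 20.6, 13.5 and 21.2 in WT eTreg and 9.62 and 11.6 in FntbKO eTreg, a fold of 1.30 (SE 0.20, adjusted p = 0.000159). FntbKO cTreg 1 was the lowest library, and the subsets did not overlap. Pdcd1, which encodes PD-1, had 3 rises, and Tnfrsf9, which encodes 4-1BB, had 4 rises and 1 fall. Cd28, the costimulatory receptor of naive T cells, had 8 falls among 19 regions, 5 of them gained, and the gained region at chr1:60822950-60823298 fell by 0.68 (SE 0.16, adjusted p = 0.00527). The 4 gained genes were Tnfrsf1b, the type 2 TNF receptor (0.70, SE 0.19, adjusted p = 0.0143, not called without FntbKO eTreg 2, at adjusted p up to 0.0762), Cd96 (-0.58, SE 0.16, adjusted p = 0.0196, not called without WT eTreg 1, WT cTreg 1, WT cTreg 3 or FntbKO cTreg 1, at adjusted p up to 0.0685), Cd5 (0.92, SE 0.29, adjusted p = 0.0354, called in the single fits that left out WT eTreg 2, WT cTreg 2, FntbKO eTreg 2 or FntbKO cTreg 2 but in no other, with adjusted p up to 0.107) and Lag3 (0.36, SE 0.12, adjusted p = 0.0452, called in the single fits that left out WT eTreg 1, WT cTreg 2 or FntbKO cTreg 2 but in no other, with adjusted p up to 0.148). Tnfrsf18 and Cd27 had no call. Of the 43 calls, 20 were kept without each library, 6 of the 28 gained ones among them.

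Genes of suppression and tissue repair had 24 rises and 5 falls among 148 regions of 16 genes (19.6% called, median 0.08). Il10 had 9 rises among 12 regions, 3 of them gained. The Il10 region at chr1:130996373-130996771, 23.1 kb from the gene, held 11.4, 12.2 and 12.9 CPM in WT cTreg, 7.66 and 11 in FntbKO cTreg, 14.9, 17.4 and 29 in WT eTreg and 20.6 and 20.9 in FntbKO eTreg, a fold of 0.88 (SE 0.16, adjusted p = 0.000824) without overlap of the subsets. The gained region inside Il10 (chr1:131021524-131021831) held 4.33, 3.1 and 3.8 CPM in WT cTreg, 1.09 and 1.62 in FntbKO cTreg, 10.7, 3.69 and 11.5 in WT eTreg and 4.61 and 4.92 in FntbKO eTreg. There WT eTreg 2 lay within the WT cTreg values, and the FntbKO libraries were below their WT counterparts in cTreg, with a pooled fold of 1.37 (SE 0.28, adjusted p = 0.00189). Gained genes were Tgfb1 (0.46, SE 0.12, adjusted p = 0.00861, not called without FntbKO eTreg 2, at adjusted p up to 0.0515), the epidermal growth factor family gene Areg, Penk, Il2ra, which encodes CD25 (-0.57, SE 0.16, adjusted p = 0.0196, not called without WT eTreg 3, WT cTreg 1, WT cTreg 3 or FntbKO eTreg 2, at adjusted p up to 0.0829), and Itgb8, an integrin that activates TGF-β, with 2 rises and 2 falls among 14 regions. The leading Itgb8 region (chr12:119185471-119185795) held 4.19, 3.79 and 5.81 CPM in WT cTreg, 8.89 and 9.08 in FntbKO cTreg, 2.65, 3.59 and 1.87 in WT eTreg and 4.01 and 3.74 in FntbKO eTreg, and it fell by 0.95 (SE 0.24, adjusted p = 0.00817) with higher cTreg values in FntbKO than in WT there. Ebi3, Fgl2 and Entpd1 had no call. Of the 29 calls, 16 were kept without each library, 3 of the 15 gained ones among them.

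Receptors for entry into tissues had 16 rises and 7 falls among 151 regions of 19 genes (15.2% called, median -0.01), and 9 genes had no call. Cxcr3, which follows interferon-induced chemokines, rose at all 3 of its regions. The gained genes were Ccr2, Ccr9, Cxcr4, Itgb1 and S100a4. Ccr2, the receptor for monocyte-attracting chemokines, had a region (chr9:124103236-124103644, inside the gene) with 3.07, 4.13 and 2.75 CPM in WT cTreg, 0.957 and 2.14 in FntbKO cTreg, 4.82, 11 and 5.94 in WT eTreg and 3.61 and 3.94 in FntbKO eTreg. Of 6 Ccr2 regions 2 rose and 1 fell. FntbKO eTreg values lay within the WT cTreg values at the leading one, and the pooled fold was 1.17 (SE 0.27, adjusted p = 0.00528). The gut-homing receptor Ccr9 fell by 1.71 (SE 0.47, adjusted p = 0.016), not called without FntbKO eTreg 2, at adjusted p up to 0.0709, at mean levels of 1.91 and 0.589 CPM. Cxcr4, the bone marrow homing receptor, had 2 rises and 2 falls among 18 regions, and its leading region fell by 0.38 (SE 0.11, adjusted p = 0.0186), not called without WT eTreg 1, WT eTreg 3, WT cTreg 2, FntbKO eTreg 1 or FntbKO cTreg 1, at adjusted p up to 0.057. Of the 23 calls, 8 were kept without each library, 3 of the 16 gained ones among them.

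Genes of Treg identity had 12 rises and 20 falls among 255 regions of 15 genes, a share of 12.5% that is near the 11.6% of all regions, with a median of -0.08. Ikzf2, which encodes Helios, had 7 rises and 1 fall among 51 regions. Pooling gained Il2ra, Ikzf4, Ikzf3, Capg, Gpr83 and Socs2. Gpr83, a Treg surface receptor, had 3 falls. Ikzf4, which encodes Eos, fell by 0.44 (SE 0.13, adjusted p = 0.0314), called in the single fits that left out WT eTreg 3, WT cTreg 1, FntbKO eTreg 2 or FntbKO cTreg 2 but in no other, with adjusted p up to 0.105, and the actin-capping gene Capg rose by 0.51 (SE 0.15, adjusted p = 0.0294), not called without WT eTreg 3, WT cTreg 1, WT cTreg 3, FntbKO eTreg 2 or FntbKO cTreg 1, at adjusted p up to 0.0958. The Ikzf4 region lies inside the gene but touches the promoter window of another gene, Gm26876. Foxp3, Itih5, Izumo1r and Plagl1 had no call. Of the 32 calls, 14 were kept without each library, 5 of the 22 gained ones among them. Summed over the regions of this list, levels were 3036 to 3299 CPM in cTreg and 2919 to 3205 in eTreg libraries.

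Helper T cell cytokine and receptor genes had 14 rises and 10 falls among 115 regions of 17 genes (20.9% called, median 0.02). Il17a had both of its 2 regions called higher, and Il23r, a receptor that sustains IL-17 producing cells, had 4 rises. Gained genes were Il22, Il2, Csf2, Il6ra and Il12rb2. The Il12rb2 region (chr6:67395608-67395784, 19.3 kb from the gene) lies beside the gene of an IL-12 receptor chain, known from type 1 helper cells, and held 0.977, 0.344 and 0.211 CPM in WT cTreg, 0.274 and 0.13 in FntbKO cTreg, 2.29, 1.89 and 1.36 in WT eTreg and 2 and 0.787 in FntbKO eTreg. At these low levels the fold of 2.16 (SE 0.57, adjusted p = 0.0126) is imprecise, though the call was kept without each library. Another Il12rb2 region fell. Csf2, which encodes GM-CSF, rose by 1.22 (SE 0.34, adjusted p = 0.0191), not called without FntbKO eTreg 2, FntbKO cTreg 1 or FntbKO cTreg 2, at adjusted p up to 0.135. Il2 rose by 0.99 (SE 0.31, adjusted p = 0.0337), called in the single fits that left out WT eTreg 2, WT cTreg 1, FntbKO eTreg 2 or FntbKO cTreg 2 but in no other, with adjusted p up to 0.116. Il6ra, the IL-6 receptor, fell by 0.26 (SE 0.08, adjusted p = 0.0332), called in the single fits that left out WT cTreg 2, WT cTreg 3, FntbKO eTreg 1 or FntbKO cTreg 2 but in no other, with adjusted p up to 0.138. Il4, Il5, Il13, Il9, Il3 and Tnf had no call. Of the 24 calls, 12 were kept without each library, 1 of the 11 gained ones among them.

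T cell receptor signalling genes had 21 rises and 23 falls among 359 regions of 22 genes (12.3% called, median -0.04), and genes induced by activation had 12 and 13 among 257 regions of 20 genes (9.73%, median -0.08). Both shares are near that of all regions. Zap70, the kinase that binds the activated receptor, was gained, and its region (chr1:36768677-36769223, inside the gene) held 7.54, 7.05 and 5.18 CPM in WT cTreg, 5.61 and 8.95 in FntbKO cTreg, 12.4, 6.37 and 16.3 in WT eTreg and 14.6 and 12.9 in FntbKO eTreg. WT eTreg 2 lay within the cTreg values, and the region rose by 0.84 (SE 0.21, adjusted p = 0.00903). Rel, an NF-kB subunit, had 1 rise and 3 falls among 10 regions, and the leading one fell by 0.96 (SE 0.23, adjusted p = 0.00773), not called without FntbKO eTreg 2, at adjusted p up to 0.0518. The adaptor Lcp2 rose by 0.42 (SE 0.12, adjusted p = 0.0197), not called without WT eTreg 3, WT cTreg 3, FntbKO eTreg 2 or FntbKO cTreg 1, at adjusted p up to 0.0792. Sos1, an exchange factor of RAS, fell by 0.96 (SE 0.32, adjusted p = 0.0489), not called without any 1 of the 10 libraries, at adjusted p up to 0.117. Activation-induced genes held 8 gained genes, Nr4a1, Egr1, Cd69, Myc, Dusp4, Dusp6, Spry2 and Nfkbia. The early activation marker Cd69 had a region (chr6:129265905-129266248, 1.08 kb from the gene) with 1.68, 2.41 and 2.32 CPM in WT cTreg, 1.64 and 1.3 in FntbKO cTreg, 5.54, 3.98 and 5.43 in WT eTreg and 3.61 and 2.76 in FntbKO eTreg, higher in every eTreg library, with a fold of 1.17 (SE 0.28, adjusted p = 0.00641). A region beside Myc, 89 kb from the gene, rose by 1.25 (SE 0.34, adjusted p = 0.0167), not called without WT eTreg 3 or WT cTreg 1, at adjusted p up to 0.066. Of the MAP kinase phosphatases, Dusp4 fell by 0.81 (SE 0.22, adjusted p = 0.0167), not called without WT cTreg 3, FntbKO eTreg 2 or FntbKO cTreg 1, at adjusted p up to 0.0739. Dusp6 fell by 0.64 (SE 0.18, adjusted p = 0.0221), not called without WT eTreg 3, WT cTreg 1, FntbKO eTreg 2 or FntbKO cTreg 2, at adjusted p up to 0.122. Of the 25 calls of activation-induced genes 9 were kept without each library, 3 of the 18 gained ones among them, and of the 8 gained genes Cd69 alone had a call that was kept. Of the 44 calls of T cell receptor signalling genes 16 were kept, 7 of the 32 gained ones among them.

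Genes of the AP-1, BATF and IRF families had 12 rises and 26 falls among 259 regions of 19 genes (14.7% called, median -0.09), and 18 of the 26 falls were Bach2 regions, which also count among the resting factors. Fos, Fosb, Fosl1, Fosl2, Junb, Jund, Batf, Atf3, Maff and Mafk had no call. Batf3, a factor known from dendritic cells and T cell memory, was the 1 gained gene, and its region (chr1:191102680-191103261) held 4.47, 5.85 and 5.7 CPM in WT cTreg, 4.1 and 5.45 in FntbKO cTreg, 10.1, 11.8 and 7.13 in WT eTreg and 7.61 and 7.09 in FntbKO eTreg. It rose by 0.76 (SE 0.20, adjusted p = 0.0111), with the largest values in WT eTreg 1 and WT eTreg 2. Irf8 had 2 rises and 1 fall among 18 regions, and the leading one, 19.4 kb from the gene, rose by 1.02 (SE 0.17, adjusted p = 0.000224), from a mean of 8.04 to 16.8 CPM. A region of Irf4, which is needed for effector Treg cells, fell by 0.62 (SE 0.11, adjusted p = 0.000463), from 45.4 to 29.5 CPM, without overlap of the subsets. Of the 38 calls, 23 were kept without each library, 7 of the 20 gained ones among them.

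Genes of mTORC1 signalling and amino acid supply had 17 rises and 5 falls among 183 regions of 24 genes, a share of 12% with a median of 0.04. Gained genes were the kinase Mtor (0.47, SE 0.14, adjusted p = 0.0286, called in the single fits that left out WT eTreg 2, WT eTreg 3, WT cTreg 2 or FntbKO cTreg 1 but in no other, with adjusted p up to 0.12), its partner Rptor (1.70, SE 0.51, adjusted p = 0.0272, called in the single fits that left out WT eTreg 1, WT eTreg 2, WT cTreg 2 or FntbKO eTreg 1 but in no other, with adjusted p up to 0.102) and both chains of a large amino acid transporter, Slc7a5 (0.71, SE 0.18, adjusted p = 0.0135, not called without FntbKO eTreg 2, at adjusted p up to 0.0573) and Slc3a2 (0.27, SE 0.09, adjusted p = 0.0424, called in the single fits that left out WT cTreg 1 or FntbKO cTreg 2 but in no other, with adjusted p up to 0.124). The Slc3a2 region lies inside the gene but touches the promoter window of another gene, Snhg1. Genes of prenylation, the mevalonate pathway and prenylated proteins had 8 rises and 10 falls among 131 regions of 23 genes (13.7%, median 0.02). Of these falls 5 were Fntb regions, 2 of them gained, and 17 genes had no call. Among the Fntb regions, the comparison within WT called 4 and that within FntbKO called 0. Lmnb1 encodes lamin B1, a farnesylated protein of the nuclear envelope, and 5 of its regions rose. The leading Lmnb1 region (chr18:56737372-56737796) held 17.9, 14.3 and 12.4 CPM in WT cTreg, 6.02 and 10.4 in FntbKO cTreg, 36.4, 22 and 30.4 in WT eTreg and 17.4 and 22.7 in FntbKO eTreg. FntbKO eTreg 1 lay below WT cTreg 1, but each genotype's eTreg values were above its own cTreg values, with a pooled fold of 1.10 (SE 0.16, adjusted p = 8.94e-05). Among the 3 gained genes was Rap1a, a small GTPase with 1 rise and 1 fall among 18 regions. The leading Rap1a region rose by 0.86 (SE 0.23, adjusted p = 0.0132), not called without WT eTreg 2 or WT cTreg 3, at adjusted p up to 0.0808. Of the 22 calls of the mTORC1 list 9 were kept without each library, 1 of the 11 gained ones among them, and of the 18 of the prenylation list 8 were, 3 of the 11 gained ones among them.

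Cell cycle genes had 5 rises and 5 falls among 134 regions of 18 genes (7.46% called, below the 11.6% of all regions), and 12 of the genes had no call. Beside the fall at Ccnd2 described above, pooling gained Ccnd1, cyclin D1 (1.75, SE 0.52, adjusted p = 0.0266, called in the single fits that left out WT eTreg 2, WT cTreg 2, FntbKO eTreg 2 or FntbKO cTreg 2 but in no other, with adjusted p up to 0.068), and Ccne1, cyclin E1 (-0.40, SE 0.12, adjusted p = 0.0242, called in the single fits that left out WT eTreg 1, WT eTreg 2, WT cTreg 2 or FntbKO cTreg 2 but in no other, with adjusted p up to 0.11). Cdk6, the kinase partner of D cyclins, had 2 rises and 1 fall among 27 regions, the leading one a rise of 0.62 (SE 0.12, adjusted p = 0.00155). Of the 10 cell cycle calls, 6 were kept without each library, 2 of the 6 gained ones among them. Survival and cell death genes had 8 rises and 17 falls among 162 regions of 16 genes (15.4%, median -0.01), and 9 of the falls were among the 40 regions of Bcl2, a guard against apoptosis. Among the 6 gained genes were Mcl1 (-0.39, SE 0.12, adjusted p = 0.0309, called in the single fits that left out WT eTreg 1, WT cTreg 2, FntbKO eTreg 1 or FntbKO cTreg 2 but in no other, with adjusted p up to 0.107), Cflar, an inhibitor of caspase 8 (-0.46, SE 0.14, adjusted p = 0.033, called in the single fits that left out WT eTreg 1, WT eTreg 2 or WT cTreg 2 but in no other, with adjusted p up to 0.106), Bcl2l1, Bid and Bcl2a1b, a member of a multi-copy family with uncertain reads (0.32, SE 0.10, adjusted p = 0.0298, not called without WT eTreg 1, WT cTreg 3, FntbKO eTreg 1, FntbKO eTreg 2 or FntbKO cTreg 1, at adjusted p up to 0.116). Of the 25 survival and death calls, 8 were kept without each library, 0 of the 16 gained ones among them. Interferon response genes had 4 falls and no rise among 50 regions of 13 genes (8%), with Usp18 (-0.84, SE 0.26, adjusted p = 0.0308, not called without WT eTreg 1, WT eTreg 3, WT cTreg 3, FntbKO eTreg 1 or FntbKO cTreg 2, at adjusted p up to 0.161) among the 2 gained genes. Gbp4, another guanylate-binding protein with uncertain reads, fell by 0.63 (SE 0.16, adjusted p = 0.0113), the 1 call of the 4 that was kept without each library. The bar plot by list shows how many genes pooling added to each.

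**Figure D4:**
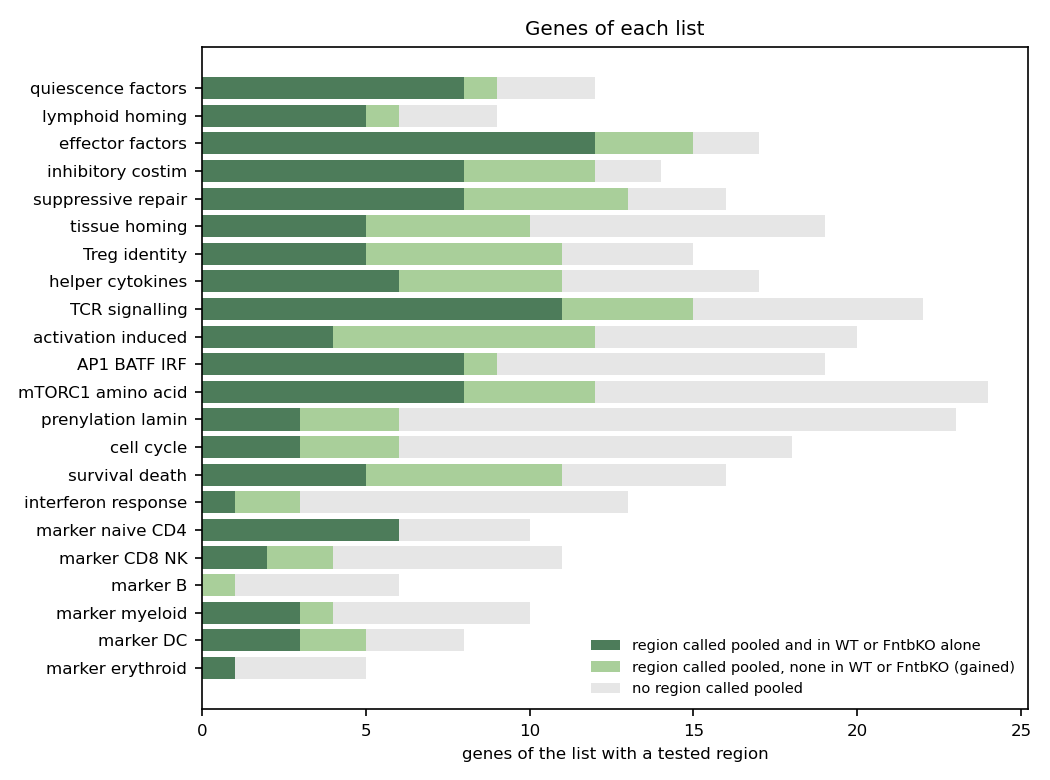
Genes with a tested region in each list (x), split into those with a region called pooled and also one called in WT or FntbKO alone (dark green), those gained by pooling (light green) and those with no pooled call (grey). Gained genes numbered 8 of 20 among activation-induced genes and 0 of 10 among naive CD4 T cell markers, against 15% of all genes; list genes have more tested regions than most, 257 over the 20 activation-induced genes, and 9.73% of those were called against 11.6% of all.

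**Figure D5:**
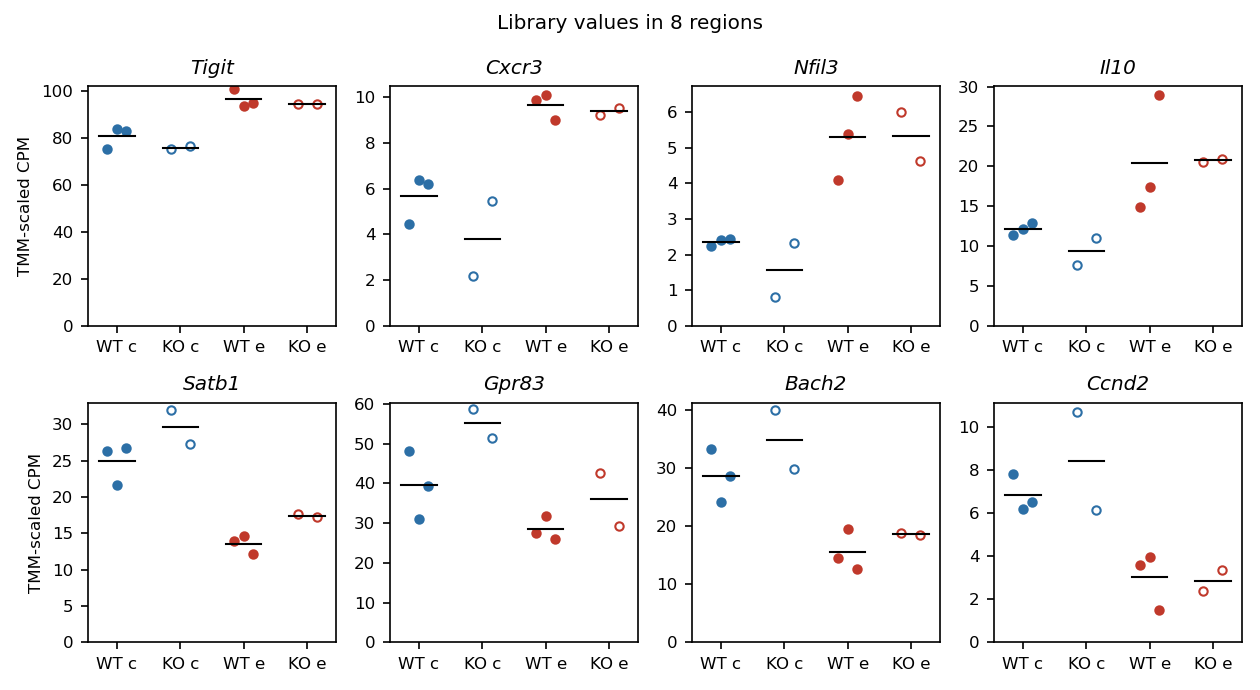
TMM-scaled CPM of each library (points; open symbols FntbKO) with group means (bars) in 8 regions, at the gene starts of Tigit, Cxcr3 and Gpr83 and the smallest-p regions of Nfil3, Il10, Satb1, Bach2 and Ccnd2. WT c, KO c, WT e and KO e are WT cTreg, FntbKO cTreg, WT eTreg and FntbKO eTreg. Gpr83 is the 1 region of the 8 in which the subsets overlap.

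At gene starts, 221 tested regions touched the promoter window of 197 genes of the lists, and 17 rose and 4 fell (9.5% called, against 5.87% of all such regions), 10 of them gained. The Tigit promoter region (chr16:43663956-43664664), whose sequence is given above, held 75.5, 84 and 82.9 CPM in WT cTreg, 75.4 and 76.6 in FntbKO cTreg, 101, 93.9 and 95.2 in WT eTreg and 94.8 and 94.8 in FntbKO eTreg. Its rise of 0.28 (SE 0.07, adjusted p = 0.00526) was small, and the libraries of each subset lay close together. At the Cxcr3 start (chrX:101733767-101734306) the region held 4.47, 6.37 and 6.23 CPM in WT cTreg, 2.19 and 5.45 in FntbKO cTreg, 9.88, 10.1 and 8.99 in WT eTreg and 9.22 and 9.55 in FntbKO eTreg. The eTreg libraries lay within a narrow span while FntbKO cTreg 1 was lowest, and the fold was 0.94 (SE 0.21, adjusted p = 0.00358). For Tnfrsf9 the values were 8.24, 13.4 and 14.8 CPM in WT cTreg, 7.66 and 13.7 in FntbKO cTreg, 18.4, 15.8 and 17 in WT eTreg and 15.6 and 19.8 in FntbKO eTreg. The subsets did not overlap, and the fold was 0.57 (SE 0.16, adjusted p = 0.0226), not called without WT eTreg 1, WT cTreg 1, FntbKO eTreg 2 or FntbKO cTreg 1, at adjusted p up to 0.101. The start of Areg, which encodes the repair factor amphiregulin, held 18.2, 15.7 and 11.4 CPM in WT cTreg, 9.3 and 11.3 in FntbKO cTreg, 25.2, 15.9 and 18.3 in WT eTreg and 17.6 and 15.3 in FntbKO eTreg. WT cTreg 1 exceeded 3 eTreg libraries there, and the fold was 0.50 (SE 0.15, adjusted p = 0.0297), not called without WT eTreg 1, WT cTreg 3, FntbKO eTreg 1, FntbKO eTreg 2 or FntbKO cTreg 1, at adjusted p up to 0.121.

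In the other direction, the Gpr83 promoter region (chr9:14859908-14860357) held 48.2, 31.1 and 39.3 CPM in WT cTreg, 58.7 and 51.5 in FntbKO cTreg, 27.5, 31.8 and 26.1 in WT eTreg and 42.5 and 29.4 in FntbKO eTreg. Within each genotype the cTreg mean was higher, but WT cTreg 2 lay below WT eTreg 2 and FntbKO eTreg 1, and the region fell by 0.54 (SE 0.11, adjusted p = 0.0024). The Il7r promoter region held 19.1, 14.5 and 14.5 CPM in WT cTreg, 25.6 and 19.6 in FntbKO cTreg, 14.2, 12.8 and 11.5 in WT eTreg and 17.4 and 13.4 in FntbKO eTreg. It was one of the last calls inside the threshold, at -0.41 (SE 0.14, adjusted p = 0.04999), called in the single fits that left out WT eTreg 1 or WT cTreg 2 but in no other, with adjusted p up to 0.201. At its start Sox4 fell by 0.41 (SE 0.09, adjusted p = 0.0042). Starts of the calcium-binding gene S100a4 (0.96, SE 0.25, adjusted p = 0.0106, not called without WT cTreg 3, at adjusted p up to 0.0511), Nfil3 (0.33, SE 0.10, adjusted p = 0.0259, not called without WT eTreg 1, WT cTreg 2, FntbKO eTreg 1 or FntbKO cTreg 2, at adjusted p up to 0.105) and the orphan receptor Nr4a2 (0.33, SE 0.10, adjusted p = 0.039, called in the single fits that left out WT eTreg 2 or WT cTreg 3 but in no other, with adjusted p up to 0.13) rose and were gained. Among starts called before, those of Asns (1.12, SE 0.15, adjusted p = 4.13e-05), Bad (0.91, SE 0.19, adjusted p = 0.00193), Havcr2, which encodes TIM-3 (1.11, SE 0.21, adjusted p = 0.0014), Ifng (0.88, SE 0.20, adjusted p = 0.00595), Gzmb (0.79, SE 0.19, adjusted p = 0.00657) and Il21 (1.07, SE 0.25, adjusted p = 0.00589) rose, though Gzmb, Ifng and Il21 had falls at other regions, and that of Foxp1 fell by 0.82 (SE 0.20, adjusted p = 0.00896).

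Of 204 tested regions within 1000 bases of a miRNA hairpin, 11 rose and 7 fell (8.82% called, below the 11.6% of all regions), 13 of them gained. The region 561 bases from Mir155 (chr16:84712995-84713579) held 51.8, 49.4 and 49.9 CPM in WT cTreg, 41.9 and 49.5 in FntbKO cTreg, 61.4, 51.2 and 63.1 in WT eTreg and 67.7 and 55.4 in FntbKO eTreg. WT eTreg 2 was within the cTreg range, and the region rose by 0.29 (SE 0.08, adjusted p = 0.0222), not called without WT eTreg 3, FntbKO eTreg 1 or FntbKO cTreg 1, at adjusted p up to 0.089. Beside Mir148a, 643 bases away (chr6:51270553-51271511), the values were 14.4, 20.6 and 18.8 CPM in WT cTreg, 11.4 and 16.6 in FntbKO cTreg, 24, 22.1 and 23.8 in WT eTreg and 18.8 and 23.3 in FntbKO eTreg, a fold of 0.46 (SE 0.13, adjusted p = 0.0209), not called without WT cTreg 1, FntbKO eTreg 2 or FntbKO cTreg 1, at adjusted p up to 0.102. The region that covers Mir29c and lies 380 bases from Mir29b-2 (chr1:195037500-195037827) held 4.19, 2.06 and 2.32 CPM in WT cTreg, 1.37 and 2.2 in FntbKO cTreg, 5.3, 2.39 and 6.79 in WT eTreg and 8.41 and 4.92 in FntbKO eTreg. WT eTreg 2 was again within the cTreg range, and the fold was 1.16 (SE 0.32, adjusted p = 0.0168), not called without WT eTreg 3, FntbKO eTreg 1 or FntbKO cTreg 1, at adjusted p up to 0.0617. Accessibility beside a hairpin is not a level of its RNA.

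Pooling also removed calls. Of 3251 regions called in WT or FntbKO, 259 were not called when pooled, 171 from WT and 88 from FntbKO. A region beside Ccr7 (chr11:99170670-99171340) held 45, 32.2 and 42.9 CPM in WT cTreg, 40.2 and 44.3 in FntbKO cTreg, 24.1, 25.7 and 17.8 in WT eTreg and 40.7 and 45.6 in FntbKO eTreg. In WT it fell by 0.82 (SE 0.14, adjusted p = 0.00201), in FntbKO the fold was 0.03 (SE 0.16, adjusted p = 0.956), and pooled it was -0.45 (SE 0.16, adjusted p = 0.0751). Beside the survival regulator Bcl2l11, a region had folds of 0.05 in WT and -1.30 in FntbKO (adjusted p = 0.0121), with -0.48 pooled (adjusted p = 0.124). Frmd5 had a region at -0.44 in WT and 0.99 in FntbKO (adjusted p = 0.0157), with 0.16 pooled (adjusted p = 0.742). These 3 were picked after their values were seen.

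The additive model takes the subset change to be the same in both genotypes, and the difference itself was tested as an interaction. No region was called by edgeR, with 3099 (4.07%) at an unadjusted p under 0.05. By the other tools, 0 were called by limma-voom (3286 at that p) and 0 by DESeq2 (2133). In the 259 regions lost by pooling, 238 (91.9%) had an unadjusted interaction p under 0.05, against 17 (0.29%) of the gained regions, shares that the choice of regions sets in part. A p that misses the threshold does not show that the genotypes had the same subset change.

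Markers of other cells were read in the same way. Naive CD4 T cell markers, most of which cTreg cells share, had 34 falls and 3 rises among 163 regions of 10 genes (22.7% called, against 11.6% of all regions, median -0.31). Their summed level was 1982 to 2325 CPM in cTreg and 1632 to 2030 in eTreg libraries. Among them the leading region of Dapl1, which had 5 falls and 1 rise, fell by 0.93 (SE 0.12, adjusted p = 5.15e-05), and that of Lef1 fell by 1.04 (SE 0.18, adjusted p = 0.000409). CD8 T or NK cell markers had 7 falls and 1 rise among 47 regions of 11 genes (17% called), with sums of 367 to 393 and 342 to 397 CPM. Cd8a fell by 2.24 (SE 0.50, adjusted p = 0.00401), from 2.34 to 0.486 CPM. Eomes fell by 1.01 (SE 0.22, adjusted p = 0.00262). Cd8b1 fell by 0.81 (SE 0.23, adjusted p = 0.0206), not called without WT cTreg 3, FntbKO eTreg 1, FntbKO eTreg 2 or FntbKO cTreg 1, at adjusted p up to 0.101. Klrb1c, an NK cell receptor, rose by 0.40 (SE 0.13, adjusted p = 0.042), called in the single fits that left out WT eTreg 1, WT cTreg 2 or FntbKO cTreg 2 but in no other, with adjusted p up to 0.133. Myeloid markers had 7 rises and 1 fall among 43 regions of 10 of 13 genes (18.6% called, median 0.28), with sums of 291 to 380 in cTreg and 356 to 428 in eTreg libraries. Of the myeloid marker regions 16.3% rose, against 6.4% of all tested regions. Cebpa rose by 1.44 (SE 0.24, adjusted p = 0.000261), Mpo by 1.76 (SE 0.36, adjusted p = 0.00216), Itgam by 0.81 (SE 0.16, adjusted p = 0.00166) and the leading region of Cebpb, which had 3 rises and 1 fall, by 0.83 (SE 0.15, adjusted p = 0.000654). Lyz2, Csf1r and Fcgr3, which define myeloid cells, had no tested region, and Spi1, Cebpe, Cd14, Csf3r, S100a8 and S100a9 had no call.

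B cell markers had 1 fall among 20 regions of 6 of 10 genes (5% called, against 11.6% of all regions), at Blnk (-1.60, SE 0.40, adjusted p = 0.00922). Their sums were 85.5 to 124 and 90.8 to 119 CPM, and Ms4a1, Cd79b and Fcer2a were among the 4 without a tested region. Dendritic cell markers had 4 rises and 4 falls among 58 regions of 8 of 10 genes (13.8% called), with sums of 391 to 522 and 419 to 518. Irf8 had 2 rises and 1 fall, Batf3 and Siglech 1 rise each, Flt3 2 falls and Ccr9 1 fall. The leading Flt3 region fell by 1.31 (SE 0.28, adjusted p = 0.00255). Erythroid markers had 2 falls among 12 regions of 5 of 8 genes (16.7% called), with sums of 103 to 127 and 77.5 to 118. The leading fall was beside Gata1 at -1.48 (SE 0.26, adjusted p = 0.000824). The part of these markers in the calls above was not tested.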

How the data were processed

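ATAC-seq read counts of 10 mouse Treg libraries were analysed, 3 WT and 2 FntbKO libraries for each of the cTreg and eTreg subsets. The deposited table holds whole-number counts per region for 77076 regions, without normalization, and the authors made it with MACS2 2.1.1, bedtools, Trimmomatic 0.36, SAMtools and Picard 2.9.4 on mm10/GRCm38, per the submitters' processing notes. The aligner, the merging of regions and the base from which coordinates count are not given in the sources used here. Even values made up 66.7% to 79.2% of counts per library, as would be seen if both mates of read pairs were counted, so a count may not be 1 independent fragment, and halved counts were an alternative.

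Counts were scaled by TMM, filtered with filterByExpr over the 4 groups (76216 regions kept) and tested with edgeR 4.0.16 (quasi-likelihood, robust; R 4.3.3). The pooled comparison used genotype and subset as terms (7 residual degrees of freedom), and the WT, FntbKO and interaction contrasts came from a fit with 1 mean per group (6). All p-values were adjusted over all tested regions by Benjamini-Hochberg, and the code was tested on simulated data. DESeq2 1.42.0 and limma 3.58.1, other scalings and filters, a replicate block and leaving out libraries were alternatives.

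Regions took the RefSeq (GRCm38.p6) protein-coding gene whose span they overlap, or the nearest within 100 kb, and 94.3% of regions had one. A gene was gained where it had a pooled call and no region called in WT or FntbKO. The rule for named regions took the 10 largest rises and 10 largest falls, then the 10 rises and 10 falls with the smallest p among gained genes. Both were chosen among regions of above-median coverage, a mean log2 CPM of 2.42, whose subsets do not overlap. In both, each gene was first reduced to its region of largest absolute fold. The rule also took up to 4 called genes per list with gained genes first, the start of Fntb and all regions of Foxp3. The comparison, the 22 gene lists and the rule were chosen with earlier results of these data known. The results of some list genes are not reported here.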

Additional observations from a re-analysis of the deposited data

Results flagged for a closer look

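In the groups of 5 libraries of the 40 regions named by size or by p, 9 of 80 had a library whose gap to the nearest other, over the group's range, was above 0.71 (Dixon's 95% critical value). The gap and range were taken on log2(CPM + 1), while the values below are CPM. Chance flags about 1 in 20 groups of like libraries, a rate that does not apply here: each group mixes 3 WT and 2 FntbKO libraries, the regions were chosen for subsets that do not overlap, and 7 of the 9 are FntbKO libraries. FntbKO cTreg 1 stood apart below the other cTreg libraries at Gxylt1 (0.821 CPM against 2.46 to 3.44), Arhgap24 (8.62 against 14.8 to 16.5), Dcun1d4 (12.0 against 17.3 to 19.8) and Kcnmb4 (7.39 against 13.2 to 15.1). At Pemt it stood above them (12.7 against 6.42 to 7.5). Among eTreg libraries, FntbKO eTreg 1 was lowest at Vcpkmt (6.81 against 11.2 to 12.2) and Kcnmb4 (16.2 against 20.1 to 21.7). WT eTreg 2 was highest at Fxyd3 (10.6 against 6.45 to 6.87) and Gpr180 (25.9 against 20.2 to 21.6). In each of these regions the library lies on the side away from the other subset, except FntbKO eTreg 1 at Vcpkmt and Kcnmb4 and WT eTreg 2 at Gpr180, and each call was kept without it.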

How the results depend on the processing

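Without the genotype term, regions higher in eTreg numbered 2798, lower 2184, gained 2530 and gained genes 1088. Over the 10 fits that left out 1 library, regions higher in eTreg ranged from 2850 to 5794, lower from 2315 to 4691, gained from 3002 to 6210 and gained genes from 1305 to 2584. Without WT cTreg 2 and FntbKO cTreg 1 together, 3217 regions and 1272 genes were gained. All 4 counts stayed within 1.5 times the main ones under other scalings (DESeq2 size factors, total counts, cyclic loess), DESeq2, limma-voom, other filters, halved counts, dispersions that are not robust, the average of both genotypes, genotypes fitted alone and, for genes, span overlap alone. Of the 3 Foxp3 regions, of which none was called, 2 changed sign. That at 0.03 was -0.06 without both libraries named above and ranged from -0.01 to 0.10 without single libraries, and that at -0.06 ranged from -0.22 to 0.15. The cause of these moves was not tested.

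With the replicate number as a block (replicate block), 5845 regions were higher, 4655 lower and 5561 gained, with 1931 gained genes. With a block for each genotype and number the counts were 6375, 5151, 5323 and 1731. The comparison within WT called 4141 and 5163 regions under these blocks in turn, against 2619 without a block. That within FntbKO called 2480 and 3342, against 1033, so the calls that define gained regions moved as well. Libraries of the same genotype and number had correlated deviations of 0.165, 0.0833 and 0.0317 in WT and 0.18 in FntbKO. With unlike numbers the correlations ran from -0.13 to 0.0439 in WT and were -0.18 in FntbKO. With 2 FntbKO libraries per subset, the FntbKO values can differ in sign alone. The labels do not say whether a number marks a shared animal, and the main comparison did not pair the libraries. No interaction was called under either block.

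With 2 FntbKO libraries per subset, leaving out 1 assumes that the lone library varies like the others. Low counts limit the folds of regions near 0 CPM.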
